A study of Mus musculus with 12 samples.

Results

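The small leucine-rich proteoglycans (SLRPs) were examined as 10 genes, Dcn, Bgn, Lum, Fmod, Ogn, Prelp, Omd, Aspn, Podn and Kera, in mouse pancreatic tumours treated with vehicle or with a focal adhesion kinase inhibitor (FAKi). Members were taken by gene name from the probes of the array that were not controls. All 10 were found, with 14 of the array's 56605 probes, and all 10 were among the 27353 genes tested. Bgn and Prelp had 3 probes each and the others 1. One probe of Bgn was well above background on 2 of the 12 arrays and was not tested with the kept probes. Expression was measured on one-colour Agilent arrays of Cy5-labelled cRNA made from total tumour RNA. Both groups were female C57BL/6 mice, 8 weeks old per the labels, that carried orthotopic KP tumours. The vehicle group (n = 6) was given vehicle for 14 days. The FAKi group (n = 6) was given the inhibitor by gavage at 50 mg/kg for 14 days. The labels do not say what KP stands for, how many cell clones the tumours came from, or whether each numbered sample was a separate mouse, so the p-values measure the spread between these samples.

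SLRPs are secreted proteins with a small core of leucine-rich repeats, to which most members attach chondroitin, dermatan or keratan sulphate chains. They bind collagen fibrils and set how these assemble and space, and several also bind growth factors or their receptors. In pancreatic tumours they belong to the dense stroma laid down by fibroblasts. By structure, decorin (Dcn), biglycan (Bgn) and asporin (Aspn) form one class, and lumican (Lum), keratocan (Kera), fibromodulin (Fmod), prolargin (Prelp) and osteomodulin (Omd) form another. Osteoglycin (Ogn) and podocan (Podn) belong to further classes.

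Of the 10 genes, 8 lie in 3 short clusters. In the RefSeq gene order of assembly GRCm38.p6, Dcn, Lum and Kera follow each other on chromosome 10, Aspn, Omd and Ogn on chromosome 13, and Prelp and Fmod on chromosome 1. On the array's mm9 positions, the probes of Dcn and Lum were 55.0 kb apart and those of Prelp and Fmod 137 kb apart. Bgn lies on chromosome X and Podn on chromosome 4.

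The following probe sequences are those of the probe that represented Bgn in the test and of the upstream Prelp probe. The latter did not represent Prelp in the test. Each has 60 bases, and in each 1 of the 3 reading frames holds no stop codon. They are printed as the array files give them.
Bgn, A_52_P162486, chrX:70738554-70738613 (mm9, plus strand): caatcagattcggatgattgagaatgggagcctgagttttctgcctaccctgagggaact
Prelp, A_65_P16773, chr1:135809343-135811065 (mm9, minus strand): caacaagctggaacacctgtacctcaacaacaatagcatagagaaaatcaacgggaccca
The Prelp probe spans 1723 bases of the genome and lies upstream of the gene's other probes at chr1:135806934-135806993 and chr1:135806855-135806914. The brighter of these, A_52_P486260, had the highest mean level and represented Prelp in the test. The other 2 probes of Bgn had no reading frame free of stop codons, and they carry the accessions of other transcripts. They lie upstream of the printed Bgn probe, at chrX:70731578-70731637 (A_55_P2715668) and chrX:70737025-70737084 (A_52_P19711).

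Promoter sequence is shown for 3 members whose levels were correlated over the 12 tumours, in part through a few tumours, as described further on. It is the 250 bases before the start site in the RefSeq promoter table (GRCm38.p6), where 8 of the 10 members had an entry. Dcn and Lum had none. Capitals mark matches to TATAAA, the core promoter element named after these letters, or GGAATG, the element of TEAD factors, searched on both strands.
Ogn, chr13:49607765-49608014, plus strand: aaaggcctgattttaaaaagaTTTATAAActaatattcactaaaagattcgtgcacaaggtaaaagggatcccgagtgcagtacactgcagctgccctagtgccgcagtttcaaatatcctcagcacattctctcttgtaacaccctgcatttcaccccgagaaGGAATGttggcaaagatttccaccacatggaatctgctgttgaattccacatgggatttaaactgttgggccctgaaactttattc
Prelp, chr1:133921402-133921651, minus strand: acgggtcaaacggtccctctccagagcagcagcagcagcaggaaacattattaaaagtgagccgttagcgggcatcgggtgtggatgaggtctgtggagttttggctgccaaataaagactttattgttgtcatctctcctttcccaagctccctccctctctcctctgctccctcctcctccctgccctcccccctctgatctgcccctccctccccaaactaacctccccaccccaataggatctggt
Fmod, chr1:134037004-134037253, plus strand: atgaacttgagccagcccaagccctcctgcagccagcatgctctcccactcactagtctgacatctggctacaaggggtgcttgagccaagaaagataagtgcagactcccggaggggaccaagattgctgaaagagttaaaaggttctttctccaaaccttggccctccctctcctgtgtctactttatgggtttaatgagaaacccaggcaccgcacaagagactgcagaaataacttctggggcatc
Ogn had 2 overlapping matches to TATAAA, on opposite strands, which began 227 and 229 bases before the start. It had 1 match to GGAATG, which began 86 bases before the start. Aspn, whose window is not printed, also had matches to TATAAA. Windows with these letters were common, at 12.4% of all 32851 promoters for TATAAA and 12.6% for GGAATG. The AP-1 letters TGANTCA were in none of the members' windows and in 6.75% of all. The Sp1 letters GGGCGG were in the windows of Bgn and Podn and in 32.7% of all. Prelp and Fmod shared none of the 4 motifs. A match describes the letters and no more.

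A level below is the log2 processed signal of a gene's probe minus the 75th percentile of its array, so 0 is the level of that percentile. Levels of different genes rest on different probes and are not set against each other. Across the 12 arrays, 66.6% to 76.1% of spots were well above background, between 71 and 156 spots were left out as outliers, and 0 were saturated. Precision is set by how many tumours there were. The test was limma across all genes with Benjamini-Hochberg adjustment at 0.05. It called 0 of 27353 genes (0%), with a smallest adjusted p of 0.354, and 4.79% of genes had an unadjusted p under 0.05. In tumours, fewer cells of a type and less RNA per cell cannot be told apart.

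Vehicle 5, vehicle 6 and FAKi 6 stood apart on a measure of signal by probe position. For 3055 pairs of probes in the same RefSeq transcript, between 1000 and 20000 bases apart on mm9, the signal of the upstream probe minus that of the downstream probe was taken and centred over the arrays. The median of these values is called the position index of an array, and a low index means less signal from upstream probes. It was -0.80 on vehicle 5, -0.28 on vehicle 6 and -0.59 on FAKi 6, against 0.07 to 0.44 on the 9 other arrays. On vehicle 5, 86.8% of pairs were below their own mean, and on FAKi 6 82.2% were. The scanner file of FAKi 6 also had another layout than those of the other arrays. The main results that touch these 3 arrays are given with and without them, a choice made with the data in view.

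None of the 10 SLRP genes passed the test of FAKi against vehicle. Every member's adjusted p was 0.999 in the limma test, 0 members had an unadjusted p under 0.05, and all 10 of the 95% intervals held 0. The FAKi mean was below the vehicle mean for 6 of 10 members, against 39.5% of all genes tested. The median difference of the members was -0.06 on the log2 scale, and that of all genes was 0.08. Groups that did not overlap were seen for 0 members and for 0.239% of all genes. The standard errors of the members were 0.35 to 0.83, and 0.33 for the median gene. Each member varied more over the 12 tumours than the median gene, whose SD was 0.59. Bgn, with an SD of 1.62, was above 96.9% of genes and Ogn, at 1.53, above 96.1%. Over the 9 arrays other than vehicle 5, vehicle 6 and FAKi 6, the SD of Bgn was 0.55, above 66.9% of genes, and that of Ogn 1.21, above 94.5%. The median gene then had an SD of 0.44, and 9 of 10 members exceeded it.

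**Figure D1:**
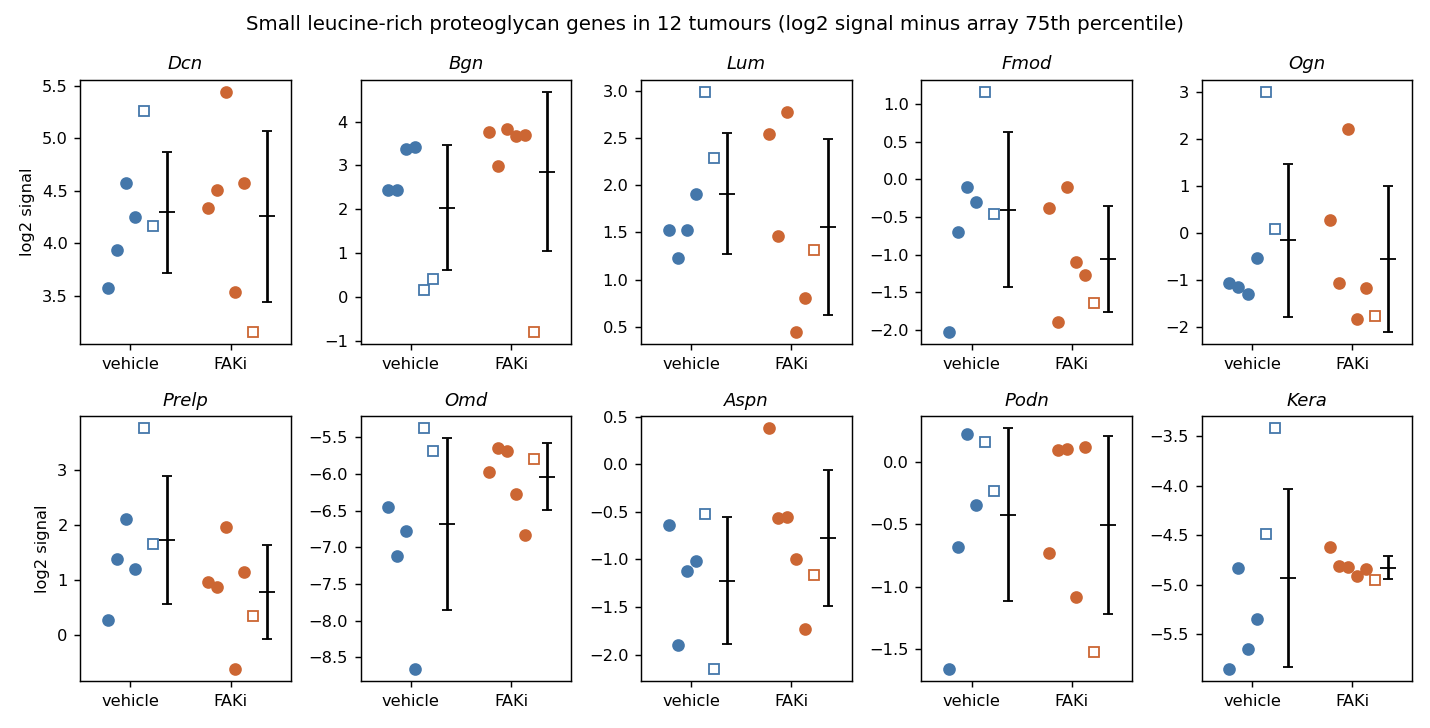
Levels of the 10 genes in 12 tumours, as log2 signal minus the 75th percentile of the array, with one panel and one y axis per gene. Points are tumours, open squares are vehicle 5, vehicle 6 and FAKi 6, and bars show the mean ± SD of the 6 tumours of a group. The groups overlap in every panel, and the 3 squares lie at the bottom of the Bgn panel but not of the Dcn panel.

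Decorin binds type I collagen and transforming growth factor beta and can bind the epidermal growth factor receptor. Its level ran from 3.57 through a median of 4.21 to 5.26 in vehicle tumours. In FAKi tumours it ran from 3.15 through 4.42 to 5.45. The ranges overlapped almost fully, and the difference was -0.04 ± 0.39 (SE, n = 6 each), with an interval of -0.86 to 0.79 on the limma fit. The 3 arrays did not share a side here. Vehicle 5 held the highest vehicle level at 5.26 and FAKi 6 the lowest FAKi level at 3.15. Without the 3 arrays the difference was 0.40 ± 0.36 (SE), and with array weights it was 0.24.

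Biglycan is the closest relative of decorin and, once released from the matrix, is a ligand of Toll-like receptors 2 and 4. The Bgn levels of vehicle tumours 1 to 6 were 2.43, 2.45, 3.37, 3.42, 0.17 and 0.40. Those of FAKi tumours 1 to 6 were 3.76, 2.99, 3.84, 3.67, 3.70 and -0.80. Within each group the levels were split, with vehicle 5, vehicle 6 and FAKi 6 far under the other tumours of their group. These were the same 3 arrays that had the lowest position index. The main Bgn probe itself lies downstream of the gene's other probes on mm9. Those probes belong to other transcripts, so this order does not show where the main probe lies in its own transcript. The 9 other arrays held Bgn between 2.43 and 3.84.

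The difference of Bgn over all 12 tumours was 0.82 ± 0.83 (SE), with an interval of -0.96 to 2.60, an unadjusted p of 0.339 and an adjusted p of 0.999 in limma. Without the 3 arrays it was 0.68 ± 0.29 (SE, 4 vehicle and 5 FAKi tumours), with an unadjusted p of 0.040 and an adjusted p of 0.261 in limma. In that fit 17.6% of all genes had an unadjusted p under 0.05. Among these 9 tumours, 4 of 5 FAKi levels were above every vehicle level, as was also the case for Omd. No share over all genes was taken for this count. With the position index as a covariate over all 12 tumours, the difference was -0.08 ± 0.36 (SE), with an interval of -0.87 to 0.70. The difference was thus positive over all tumours and without the 3 arrays, and close to 0 once the index was in the fit.

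Leaving out FAKi 6 alone gave 1.55 for Bgn (unadjusted p = 0.020, adjusted p = 0.767), leaving out vehicle 5 gave 0.45 and leaving out vehicle 6 gave 0.49. With slide as a fixed block the difference was 2.13 (unadjusted p = 0.031, adjusted p = 0.9999), a fit in which 1.81% of genes had an unadjusted p under 0.05. Within slide 1 it was 1.93 and within slide 4 it was 2.33. Each of these slides held 1 FAKi array, 1 vehicle array with a low index and 1 without. Over the 26 tested alternatives the adjusted p of Bgn in limma was at least 0.261. A dimmer Bgn probe of another transcript, A_55_P2715668, was also lowest on FAKi 6, at -5.33 against -3.59 for the next FAKi tumour. It read -4.03 on vehicle 5 and -4.17 on vehicle 6, within the range of -4.29 to -2.94 set by the other vehicle tumours. Its difference was 0.09 ± 0.37 (SE).

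Asporin, which binds collagen and transforming growth factor beta, ran from -2.15 through -1.07 to -0.52 in vehicle tumours. In FAKi tumours it ran from -1.73 through -0.78 to 0.38. FAKi tumours lay above the vehicle mean in 5 of 6 cases, but the difference of 0.45 ± 0.38 (SE) was close to its error. Within slide 1 it was -0.91 and within slide 4 it was 2.40, so the slides differed in sign.

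**Figure D2:**
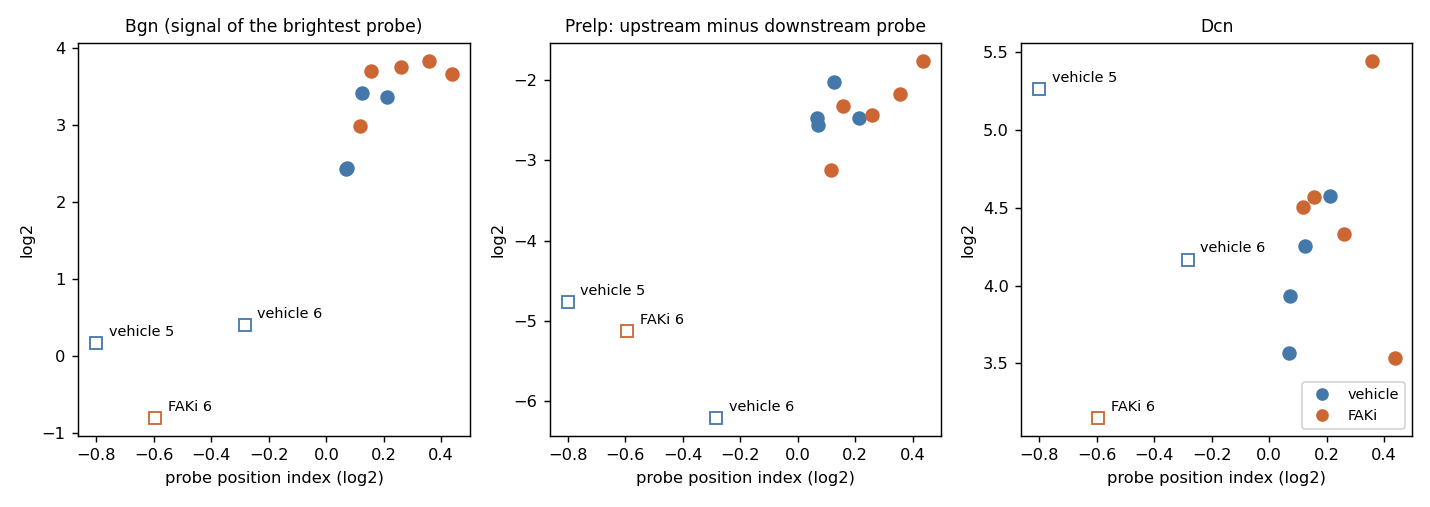
Position index of each array (x axis, log2) against the level of Bgn, the level of the upstream Prelp probe minus the downstream one, and the level of Dcn (y axes, log2). Open squares are vehicle 5, vehicle 6 and FAKi 6. They lie low for Bgn and for the difference of the Prelp probes, and are spread from 3.15 to 5.26 for Dcn.

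Prolargin anchors basement membranes to the collagen below them. Its main probe ran from 0.28 through 1.52 to 3.76 in vehicle tumours and from -0.62 through 0.92 to 1.97 in FAKi tumours. Of 6 FAKi tumours, 1 lay above the vehicle mean. The difference of -0.95 ± 0.53 (SE) was the largest in size among the members and had the smallest unadjusted p, 0.097, with an interval of -2.10 to 0.20 in limma. Vehicle 5 held the highest level. Without it the difference was -0.54, and without the 3 arrays it was -0.38 ± 0.50 (SE). The sign was negative under all 28 alternatives, including within slide 1 (-1.79) and within slide 4 (-0.56), and the adjusted p was at least 0.476 wherever there was a test.

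The probes of Prelp differed between arrays. The upstream probe printed above read -4.56 on vehicle 6 and -4.77 on FAKi 6, while the other vehicle tumours lay between -2.19 and -0.36. Vehicle 5 was within that range at -1.01. The upstream minus the downstream level was -4.76 on vehicle 5, -6.21 on vehicle 6 and -5.13 on FAKi 6. On the 9 other arrays it was between -3.11 and -1.76. The downstream probe showed no such split, with 3.76, 1.65 and 0.35 on the same 3 arrays. On vehicle 5 the downstream level was the highest of all tumours, and the upstream level was low relative to it though within the vehicle range. Per probe, the differences between the groups were -0.36 ± 0.79 (SE) upstream and -0.54 ± 0.46 (SE) for the third probe, so the 3 probes shared a sign. The part of the position index in the levels of Bgn and Prelp was not tested beyond the fits given here.

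Fibromodulin binds type I collagen and takes part in its cross-linking. Its level ran from -2.03 through -0.38 to 1.17 in vehicle tumours and from -1.90 through -1.18 to -0.10 in FAKi tumours. The difference was -0.66 ± 0.47 (SE), and 2 of 6 FAKi tumours were above the vehicle mean. Without the 3 arrays it was -0.16 ± 0.46 (SE), and vehicle 5 held the highest level. Within slide 1 it was -1.80 and within slide 4 it was 0.20.

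Lumican, a keratan sulphate carrier that limits the thickness of collagen fibrils, ran from 1.23 through 1.71 to 2.99 in vehicle tumours. FAKi tumours ran from 0.45 through 1.39 to 2.78 and included both lower and equally high tumours. The difference of -0.35 ± 0.43 (SE) became 0.06 ± 0.47 (SE) without the 3 arrays. Within slide 1 it was -1.45 and within slide 4 it was 0.78.

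Keratocan is known from the cornea. Its level ran from -5.85 through -5.09 to -3.42 in vehicle tumours, with an SD of 0.90. FAKi tumours all lay between -4.95 and -4.61, with an SD of 0.12. These are low levels, and they depend on the 75th percentile that was subtracted. The lowest vehicle level was on vehicle 1, whose percentile was the highest of all arrays (13.88 on the log2 scale). The highest was on vehicle 6, whose percentile was the lowest (11.82), while FAKi arrays lay between 12.82 and 13.42. The part of this subtraction in the levels and spread of Kera was not tested. The spread was smaller in FAKi tumours for 5 of 10 members, against 72.3% of all genes, and the difference in spread was not tested. The difference in level was 0.11 ± 0.35 (SE) and turned to -0.05 under quantile normalisation and to -0.06 in the authors' deposited table. Without the 3 arrays it was 0.62 ± 0.22 (SE, unadjusted p = 0.018, adjusted p = 0.192 in limma), against the 17.6% of genes given above. This was the lowest adjusted p over its alternatives.

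Osteomodulin is known from bone and tooth. It was the only member not well above background on every array, at 2 vehicle and 4 FAKi arrays, so its values lie near the limit of detection. Levels ran from -8.66 through -6.61 to -5.38 in vehicle tumours and from -6.84 through -5.89 to -5.65 in FAKi tumours. The difference was 0.64 ± 0.47 (SE). It was 1.17 ± 0.44 (SE) without the 3 arrays (unadjusted p = 0.024, adjusted p = 0.215 in limma) and 1.05 with array weights (unadjusted p = 0.020, adjusted p = 0.186), where 18.4% of genes had an unadjusted p under 0.05. With slide as a fixed block it was -0.16. The value of 0.186 was the lowest adjusted p over its alternatives. Leaving out vehicle 4, the lowest tumour, gave 0.25.

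Osteoglycin, also called mimecan, is a collagen-binding SLRP of connective tissue and vessel walls. In vehicle tumours 5 of the 6 levels lay between -1.30 and 0.07 and vehicle 5 stood at 3.0. FAKi tumours ran from -1.83 through -1.11 to 2.20, with FAKi 3 the highest. One tumour in each group thus stood well above the rest of its group. The difference of -0.40 ± 0.81 (SE) turned to 0.23 without vehicle 5 and to 0.69 ± 0.70 (SE) without the 3 arrays.

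Podocan, a collagen-binding SLRP first known from the kidney, ran from -1.66 through -0.29 to 0.22 in vehicle tumours. In FAKi tumours it ran from -1.52 through -0.32 to 0.12. The difference was -0.08 ± 0.38 (SE). It turned to 0.32 ± 0.40 (SE) without the 3 arrays and to 0.12 without FAKi 6, the lowest FAKi tumour.

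**Figure D3:**
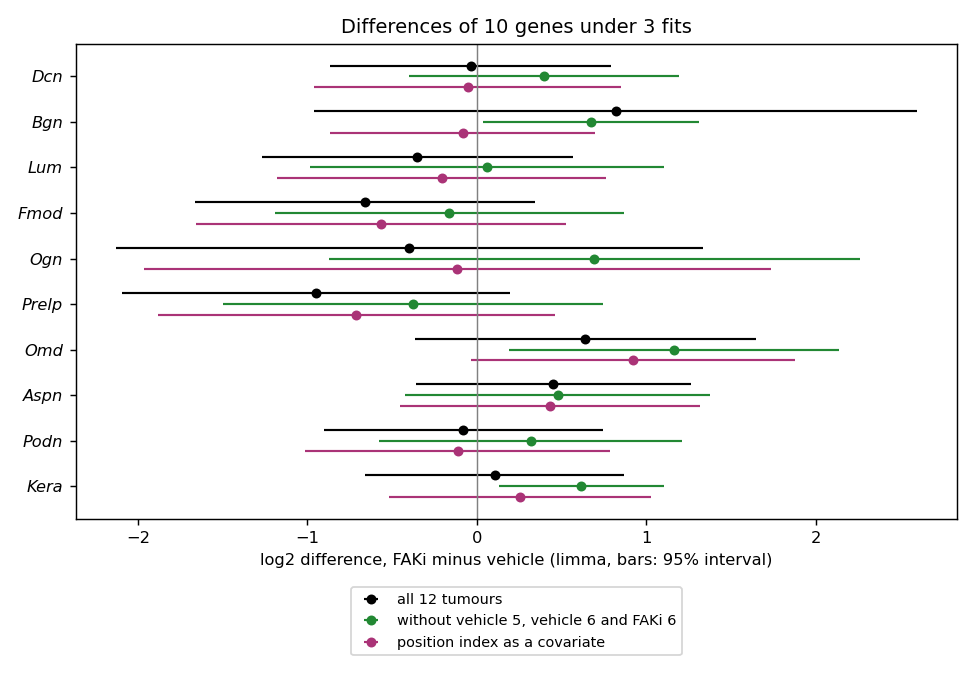
Log2 difference of each gene, FAKi minus vehicle, with its 95% interval in limma, over all 12 tumours (black), without vehicle 5, vehicle 6 and FAKi 6 (green) and with the position index as a covariate (purple). All 10 black intervals hold 0, and for Bgn the green estimate is 0.68 and the purple one -0.08.

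Without the 3 arrays, the median difference of the members was 0.44, with 2 of 10 below 0, and the median of all genes was 0.15. An unadjusted p under 0.05 was found for 3 of 10 members, against 17.6% of all genes. With the position index as a covariate the median was -0.10 and 7 of 10 were below 0. Neither fit called a gene at an adjusted p under 0.05. The members' mean level in a tumour was taken as the mean of the gene's level minus its own mean over the 12 tumours. It ran from -0.58 to 1.02 in vehicle tumours and from -0.88 to 0.93 in FAKi tumours. Without the 3 arrays it ran from -0.58 to 0.09 and from -0.51 to 0.93. Vehicle 5 at 1.02 and FAKi 3 at 0.93 were the highest, with 9 and 10 of the 10 members above their own mean. FAKi 6 and vehicle 1 were the lowest, each with 1 member above its mean.

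Several members rose and fell together from tumour to tumour. Over the 45 pairs of members, Pearson's r across the 12 tumours had a median of 0.30, and 37 pairs were above 0. After Benjamini-Hochberg adjustment of permutation p-values over the 45 pairs, 9 pairs had an adjusted p under 0.05. All 9 were among Dcn, Lum, Fmod, Ogn, Prelp and Podn. These counts have no share over pairs of all genes beside them, so they do not say whether the members are unusual in this.

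The closest pair was Lum and Ogn, from different chromosomes, with r = 0.89 and Spearman's rho = 0.89 (permutation p = 2e-05 and 0.00028, adjusted 0.0009 and 0.0076). The r was 0.89 without the 2 tumours farthest from the median of Lum, 0.95 within vehicle, 0.89 within FAKi and 0.88 over the 9 tumours, where it was the 1 pair of 45 with an adjusted p under 0.05 (0.0040 by permutation). Dcn and Podn followed with r = 0.86 and rho = 0.88 (permutation p = 0.00019 and 0.00034, adjusted 0.0043 and 0.0076), and r was 0.85 without the 2 farthest tumours and 0.83 over the 9. Dcn and Prelp had r = 0.79 and rho = 0.74 (permutation p = 0.0023 and 0.0073, adjusted 0.015 and 0.066), with 0.86 without the 2 farthest and 0.78 over the 9.

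The neighbours Fmod and Prelp had r = 0.82 and rho = 0.83 (permutation p = 0.0015 and 0.0012, adjusted 0.015 and 0.019). Their r was 0.62 both without the 2 farthest tumours and over the 9, 0.95 within vehicle and 0.46 within FAKi. Ogn and Prelp (r = 0.78) fell to 0.46 without the 2 farthest tumours and to 0.50 over the 9, so this relation rested on a few tumours with high levels of both. By rank, 4 of the 45 pairs had an adjusted p under 0.05 in the permutation test, and without the 2 farthest tumours of each pair 3 did by Pearson's r. Within a group of 6, the exact test over 720 arrangements cannot bring a single pair of the 45 below an adjusted p of 0.0625, so the count of 0 there says little.

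Position on the chromosome was set beside these values as a description. The 7 pairs from the same cluster had a median r of 0.36, from 0.20 to 0.82, and the 38 other pairs had a median of 0.28. Bgn was in none of the 9 pairs. Its r with Dcn was 0.27 over 12 tumours and with Lum -0.22, and its median over the 9 other members was -0.14, with 3 above 0. Over the 9 tumours without the 3 arrays of low index the median was 0.41, with all 9 above 0 and 0 of them at an adjusted p under 0.05 by permutation. The pooled values of Bgn therefore rest on 3 arrays that form a cluster of their own in its levels.

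**Figure D4:**
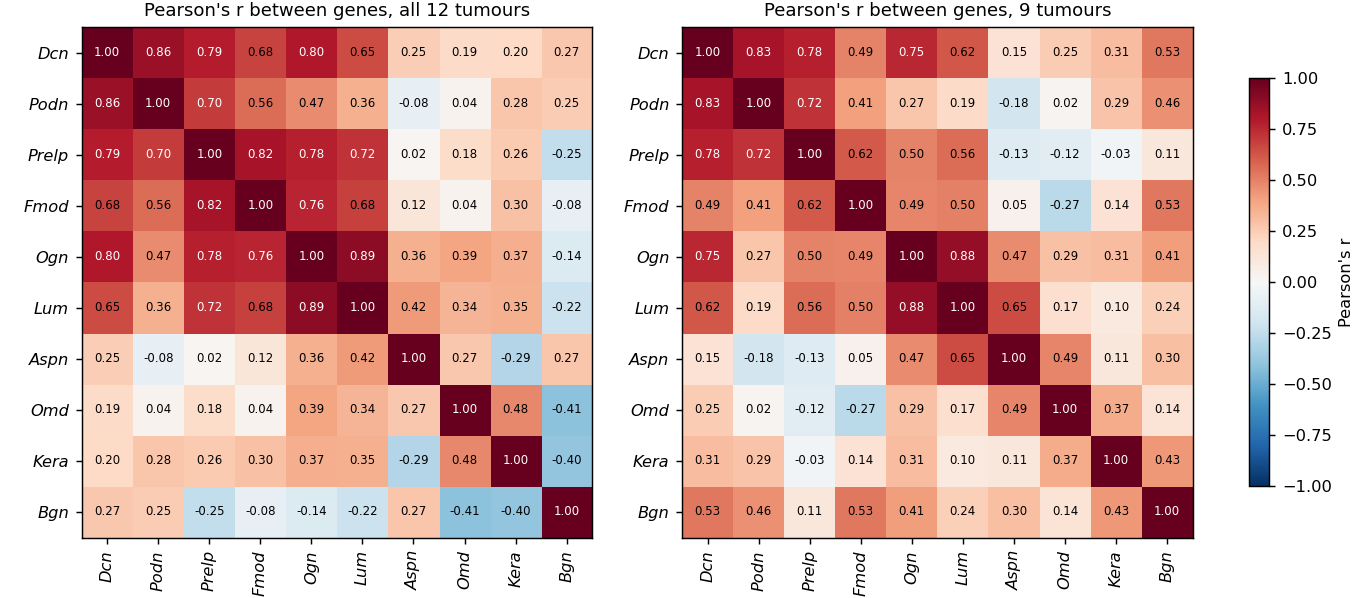
Pearson's r between the levels of each pair of genes (colour scale from -1 to 1, values in the cells), over all 12 tumours on the left and over the 9 tumours without vehicle 5, vehicle 6 and FAKi 6 on the right. Lum and Ogn reach 0.89 and 0.88, and the Bgn row turns from mostly negative to positive.

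Genes whose pattern was most like that of the SLRPs were ranked by r with the members' mean level over 12 tumours, among 16967 named genes. Postn, the matrix protein periostin, was the nearest at 0.95. Glipr2 (0.95), Lama4, a laminin chain of vessel basement membranes (0.95), and Metrnl (0.95) followed. Then came Plpp1 (0.95), Anxa6 (0.94) and Tnc (0.94), which encodes the matrix glycoprotein tenascin C. Mrgprf (0.94), Myl9 (0.93), a myosin light chain of smooth muscle, and Fez1 (0.93) completed the 10. Over the 9 tumours these 10 had an r of 0.88 or higher, but the order changed. Glipr2 (rank 2, r = 0.96) and Tnc (rank 6, r = 0.96) stayed among the nearest 10, while Postn was at rank 17 (r = 0.93) and Anxa6 at rank 56 (r = 0.88). None of the 10 passed the test of FAKi against vehicle.

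The wider pathway was read from 7 lists of 82 genes, of which 76 were measured. The FAKi mean was above the vehicle mean for 27 and below it for 49, and it was below for 39.5% of all genes tested. Genes of a list can vary together, so the counts by list are descriptions. An unadjusted p under 0.05 was found for 6 genes, all lower in FAKi, or 7.89% against 4.79% of all genes, and 0 passed the adjusted threshold in limma. Among other leucine-rich repeat proteins, 1 of 5 measured genes was above 0, and Chadl, a relative of the cartilage protein chondroadherin, differed by -0.98 ± 0.27 (SE, adjusted p = 0.855 in limma). Optc, the SLRP opticin, differed by -0.79 ± 0.80 (SE). Epyc, Nyx and Ecm2 did not enter the test.

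Of the enzymes that build the linker and the chondroitin or dermatan sulphate chains, 16 of 21 were below 0. The sulphotransferase genes Chst15 (-1.21 ± 0.55, SE) and Chst7 (-0.82 ± 0.37, SE) had the smallest p-values of that list. Of the 7 keratan sulphate enzymes 4 were below 0, with B3gnt2 at -0.49 ± 0.20 (SE) and B3gnt7 at 0.58 ± 0.32 (SE). The proteases that cleave propeptides of collagens and some SLRPs, with their enhancers, had 3 of 5 below 0, with Tll2 at 0.32 ± 0.34 (SE) and Pcolce2 at -0.35 ± 0.38 (SE). Each of these genes had an adjusted p of 0.999 in limma.

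Collagen genes, whose fibrils the SLRPs bind, had 6 of 11 above 0 and a median of 0.02, with Col6a2 at 0.78 ± 0.56 (SE) and Col6a3 at 0.33 ± 0.36 (SE). Of the receptors and growth factors that SLRPs bind, 12 of 17 were below 0. Egfr, the receptor bound by decorin, differed by -1.46 ± 0.35 (SE, adjusted p = 0.750 in limma), and 0 of the 6 FAKi levels exceeded the mean of vehicle. Bmp4, a growth factor bound by biglycan, differed by -1.92 ± 0.49 (SE, adjusted p = 0.849 in limma). Other secreted proteoglycans were split, with 5 of 10 above 0, Ncan at 0.33 ± 0.24 (SE) and Esm1, the proteoglycan endocan, at -0.69 ± 0.52 (SE).

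Marker genes of the cell types in such a tissue were read beside these results, and 0 of them passed the test. Of all genes tested, 39.5% were below 0, and markers of a cell type can vary together. The 7 measured markers of tumour epithelium had 5 above 0, and their mean level ran from -1.45 to 0.82 in vehicle and from -0.49 to 0.53 in FAKi tumours, lowest in vehicle 5. The 10 fibroblast markers had 7 above 0 and ran from -1.32 to 0.88 in vehicle and from -0.39 to 0.62 in FAKi tumours. They were highest in vehicle 5, as the members were, and lowest in vehicle 1, where the members were low. The fibroblast marker nearest to the members' mean was Dpt, the collagen-binding protein dermatopontin, at an r of 0.92 over 12 tumours. The 9 others were lower, from Pdgfra at 0.79 through Col1a1 at 0.61 and Fap at 0.41 to Dpp4 at -0.0096. Pericyte and smooth muscle markers (3 of 7 above 0) ran from -0.31 to 0.25 and from -0.71 to 0.85, highest in FAKi 3. Skeletal muscle markers (6 of 8 above 0) ran from -1.87 to 1.82 and from -1.31 to 3.64, also highest in FAKi 3, the FAKi tumour with the highest member level.

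Endothelial markers were below 0 in 6 of 6 cases, with Vwf at -1.07 ± 0.35 (SE, adjusted p = 0.937 in limma), and ran from -0.75 to 1.30 in vehicle and from -0.78 to 0.12 in FAKi tumours. Their highest and lowest tumours, vehicle 5 and FAKi 6, were those of the members, and both are arrays of low position index. The r of their mean level with the members' mean was 0.72 over 12 tumours and 0.39 over the 9 without the low-index arrays. The lists of chondroitin or dermatan sulphate enzymes and of receptors and growth factors had the same highest and lowest tumours. Adipocyte markers were below 0 in 8 of 8 cases and ran from -2.31 to 2.94 and from -2.02 to 1.42. Acinar pancreas markers were above 0 in 9 of 9 cases, with Prss2, a trypsinogen, at 1.23 ± 0.39 (SE, adjusted p = 0.921 in limma), and ran from -0.66 to 0.47 and from 0.07 to 0.47. Markers of cartilage, tendon and bone had 2 of 7 above 0 and ran from -0.21 to 0.55 and from -0.44 to 0.23. Mesothelial markers had 3 of 4 above 0 and ran from -0.81 to 0.40 and from -0.86 to 1.22. Leukocyte markers had 7 of 11 above 0 and ran from -0.54 to 0.55 and from -0.32 to 0.72. The part of any of these cell types in the members' levels was not tested.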

How the data were processed

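Per the file headers, the authors' intensity values came from Agilent Feature Extraction 11.5.1.1. The headers place the probes on build mm9, except that of FAKi 6, which names no build. The software had subtracted background, and the red channel alone was used. The authors also deposited log2 values of 38569 probes on these arrays. The submitters' processing notes name limma but no version of it. Each column matched its own array best (r of at least 0.997 across probes), and column medians lay between 10.71 and 10.90. The normalisation behind them is unknown.

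From the scanner files, spots marked as outliers were dropped, each array's 75th percentile was subtracted from log2 processed signal, and the spots of each probe were averaged. A probe was kept if well above background on at least 6 of 12 arrays, which left 40459 of 56605. The kept probe of highest mean stood for a gene. Names came from the probe's RefSeq accession for 32994 probes, a current symbol for 10224, a synonym for 520 and the array's own name for 12867.

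Groups were compared by limma 3.58.1 in R 4.3.3 with no covariate. P-values of correlations came from 100000 random permutations, or from every permutation where only 6 tumours entered, in Python 3.11.15 with NumPy 2.4.6. The smallest p the resamples can give is 1e-05. The procedures were tested on simulated data. Slides were read from the array barcodes. Slide 1 held vehicle 3 and 5 with FAKi 5, slide 2 vehicle 1 and 4, slide 3 FAKi 2, 3 and 4, slide 4 vehicle 2 and 6 with FAKi 1, and slide 5 FAKi 6. The labels do not say that replicate numbers pair the tumours, and the main test did not pair them.

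The members, gene lists and tests were chosen with earlier results of these data known. Named genes were all members, the 2 of smallest unadjusted p in each pathway list, the 10 non-members nearest in r to the members' mean, leaving out predicted and unnamed genes, and the nearest marker. Vwf, Prss2 and some markers were named after their values were seen. Alternatives covered normalisation, background correction, filters, the authors' table, array weights, slide and replicate blocks, and leaving out each array. The position index, its use as a covariate and the removal of 3 arrays together were chosen after seeing the data.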

Additional observations from a re-analysis of the deposited data

Results flagged for a closer look

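A tumour was singled out when its gap to the nearest of the 6 in its group was a large share of the group's range, by Dixon's test at the 95% level. Of 32 groups examined (14 probes, the position index and the members' mean level, in each treatment), 4 met this, and chance gives about 1 in 20. The main Bgn probe read -0.80 on FAKi 6, against 2.99 for the next lowest FAKi tumour. The Bgn probe A_55_P2715668 read -5.33 on FAKi 6, against -3.59 for the next. Ogn stood at 3.0 on vehicle 5, against 0.07 for the next highest vehicle tumour. The position index of FAKi 6 was -0.59, against 0.12 for the next lowest. The low Bgn levels of vehicle 5 and vehicle 6 were not singled out, since they lay near each other.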

How the results depend on the processing

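No member passed the adjusted threshold of 0.05 under any alternative that gave a test. Of 279 values of single members under the alternatives, 249 kept their sign and 30 changed it, 7 of these within slide 1 or slide 4, where there is no test; the cause was not tested. Dcn turned to 0.24 with array weights, Ogn to 0.29 and Podn to 0.16. Without vehicle 5, vehicle 6 and FAKi 6 together, Dcn was 0.40, Lum 0.061, Ogn 0.69 and Podn 0.32. With the position index as a covariate Bgn was -0.083. With slide as a fixed block Omd was -0.16 and Kera -0.13, and Kera was -0.050 by quantile normalisation and -0.057 in the authors' deposited table. Leaving out 1 array at a time, Dcn ran from -0.27 to 0.19, Ogn from -0.95 to 0.23, Podn from -0.33 to 0.12, Kera from -0.078 to 0.41 and the median of the members from -0.25 to 0.18. That median was -0.84 within slide 1 and 0.36 within slide 4, each comparing 1 FAKi with 2 vehicle arrays, with 8 and 3 of 10 members below 0. The number of genes passing was 1 with normexp, 3 with array weights, and 0 to 3 with 1 array left out, 3 of them without FAKi 1. A replicate block gave 0 genes passing and Prelp at -0.95 (unadjusted p = 0.047, adjusted p = 0.816 in limma). Deviations of tumours with the same number correlated between -0.12 and 0.49 across genes. These correlations cannot show whether the numbers pair the tumours, which the labels do not say. The count of correlated pairs, 9, became 7 by quantile normalisation and in the authors' deposited table, 3 without the 2 farthest tumours, and 1 over 9 tumours. It was 0 within vehicle and 0 within FAKi, where 6 tumours could hardly give another count. Omd, well above background on 6 of 12 arrays, is limited by signal over background.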
